A study of Mus musculus with 1 sample.

Results

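The genes described here are 10 transcription factor genes of mesenchymal cells and of the epithelial-to-mesenchymal transition: Snai1, Snai2, Zeb1, Zeb2, Twist1, Twist2, Prrx1, Prrx2, Tcf21 and Tcf4. They were chosen by name, and each of the 10 had 1 row in the deposited table, among 23386 genes in all. The table holds RNA sequencing of 1 mouse culture of pancreas fibroblasts. By its labels, the culture was expanded from normal pancreas of a mixed C57BL/6 and BALB/c animal, was negative for the Cre written tf1acre and carried floxed alleles of the gene written Tgfrb2. The series set such normal fibroblasts against cancer-associated fibroblasts of pancreas tumours, but a single library, the one labelled normal fibroblast, is described here. Its value column carries a CAF code, which goes against that label, so the condition of the library is not settled. There was no replicate, no comparison between conditions and no test. Intervals below are at the 95% level unless said otherwise; they reflect the counting of reads and carry no information on the spread between cultures.

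Snail and ZEB proteins are zinc finger repressors, and TWIST proteins are basic helix-loop-helix factors. All of them bind E-box sequences in DNA. When epithelial cells turn mesenchymal during development, wound repair or tumour spread, these factors repress E-cadherin and other junction genes. Fibroblasts are mesenchymal from the outset and commonly express several of them. PRRX proteins are homeobox factors of limb, face and other mesenchyme. TCF21 is a basic helix-loop-helix factor of the mesenchyme of internal organs. TCF4 is an E protein, the kind of general helix-loop-helix partner with which TWIST proteins and TCF21 form dimers that bind DNA.

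The library held 52494688 reads, recovered from the deposited values. Levels are given as CPM (reads scaled to library size) and, wherever genes are compared, as RPKM, which is CPM divided by the total exon length of the gene in kilobases. The labelled cell type was checked first. All 10 fibroblast markers examined had at least 10 reads, but so did all 8 epithelial and 7 mesothelial markers and 63.9% of all genes. Together the fibroblast markers reached 2116 RPKM. Of them, 9 lay above the median of protein-coding genes with at least 10 reads (4.94 RPKM), and Lum (2.16 RPKM) did not. The 8 epithelial markers summed to 17.2 RPKM, the 7 endothelial markers to 0.805 RPKM, the 7 leukocyte markers to 11.1 RPKM and the 6 Schwann and neural crest markers to 0.655 RPKM. The 7 mesothelial markers summed to 346 RPKM and the 7 acinar markers to 96.5 RPKM, and the 5 pericyte markers to 21.6 RPKM, nearly all of it from Mcam. The mesothelial sum was not carried by a few genes. All 7 mesothelial markers lay above that median, from Wt1 at 15.7 RPKM to Bnc1 at 102 RPKM. None of these markers was at 0 reads. The acinar sum came mostly from Prss2, Cpb1, Cela1 and Cpa1, while Ptf1a had 6 reads, Rbpjl 21 and Bhlha15 51. Most of the leukocyte sum came from Lyz2 (6.99 RPKM) and Cd68 (3.56 RPKM). Most of the epithelial sum came from Krt18 (8.22 RPKM) and Krt19 (5.98 RPKM). In RNA from a whole culture, few cells with much of a transcript cannot be told apart from many cells with little, and the part of these cell types in the levels below was not tested.

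Taken per length, 6 of the 10 factors were expressed at similar, moderate levels, a further pair was lower, and Twist2 and Tcf21 were scarce. Of the 10 genes, 9 had at least 10 reads, against 63.9% of all genes. The members above the median of the detected protein-coding genes (21.4 CPM) numbered 7, where 33.8% of all protein-coding genes lay above it. Per length the count was 6, against 33.9% of coding genes above 4.94 RPKM. The median over the 10 genes was 33.1 CPM (log2 level 5.07), against 4.71 CPM over all protein-coding genes (2.38). Together the members had 28469 reads, 0.0542% of the library (exact Clopper-Pearson interval 0.0536% to 0.0549%).

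The order per length ran from Snai1 through Prrx2, Twist1, Zeb1, Prrx1 and Zeb2 to Snai2 and Tcf4, and then to Twist2 and Tcf21. Each gene exceeded the next by more than its counting error. The narrowest gap was that from Prrx2 to Twist1, a ratio of 1.13 (1.05 to 1.21), and the widest that from Tcf4 to Twist2, 19.1 (12.1 to 32.3). The order within the upper 6 is not firm, because it depends on which transcripts give a gene its length. With the longest transcript as length Prrx2 came first, and with the transcripts that the table lists Zeb2 did. Under all 3 definitions the same 6 genes held the upper 6 places and the same pair the lower 2. The 6 lay within 2.45-fold of each other with all exons counted, within 1.53-fold with the longest transcript and within 2.05-fold with the listed transcripts. In CPM, which is not divided by length, 5 of these 6 kept an upper place, with Tcf4 in that of Twist1, and the 6 genes named above spanned 7.07-fold.

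**Figure D1:**
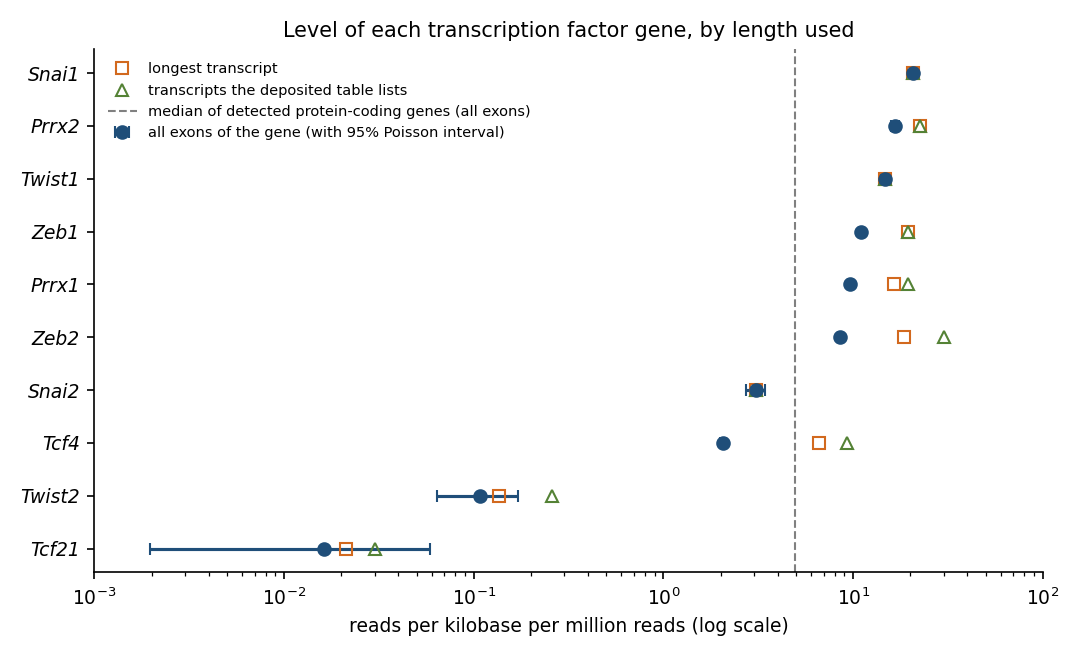
Level of each of the 10 factors in the 1 library, in RPKM on a log axis, with length taken as all exons of the gene (filled circles, bars are 95% Poisson intervals), the longest transcript (squares) or the listed transcripts (triangles). Snai1, Prrx2, Twist1, Zeb1, Prrx1 and Zeb2 lie right of the dashed line at 4.94 RPKM, the median of detected protein-coding genes with all exons as length, whereas Twist2 (0.108 RPKM) and Tcf21 (0.0162 RPKM) lie far to its left.

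Of the Snail genes, Snai1 was the more abundant. Snai1 (GRCm38 chromosome 2, 167538195 to 167542814, plus strand) had 1771 reads, which is 33.7 CPM (exact Poisson interval 32.2 to 35.3) and 20.8 RPKM. This placed it above 89.5% of coding genes per length. Snai2, the gene of SLUG (chromosome 16, 14705852 to 14709385), had 325 reads, or 6.19 CPM (5.54 to 6.90) and 3.06 RPKM. Snai1 therefore exceeded Snai2 6.79-fold per length (6.03 to 7.67). Both have the same length under every definition used, so this contrast does not move with the choice of transcript. The related genes were near the limit of detection: Snai3 had 14 reads, Scrt1 25 and Scrt2 6.

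The promoter of Snai1 is shown because it is the one promoter among those of the members that holds the E-box CAGGTG or its reverse complement CACCTG, the sequence that Snail and ZEB proteins bind. RefSeq promoters (GRCm38.p6) were found for 7 of the 10 members, which have 10 start sites between them, and for Snai1 alone was there a match in the 250 bases before a start. Of all 32851 promoters, 17.2% hold this E-box there. In the sequence below (chr2:167537945-167538194, plus strand, 5′ to 3′, ending at the base before the start) the capitals mark the E-box, whose first base lies at position -126.
Snai1: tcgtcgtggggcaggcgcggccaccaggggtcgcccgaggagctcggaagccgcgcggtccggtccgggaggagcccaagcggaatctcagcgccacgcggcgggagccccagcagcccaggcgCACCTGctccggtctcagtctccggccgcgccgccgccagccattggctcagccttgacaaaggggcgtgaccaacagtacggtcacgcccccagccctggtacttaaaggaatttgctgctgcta
A match is a run of letters and does not show that a factor binds there. The same stretch was 70.0% G and C with a CpG content of 0.882 of that expected from its C and G content, against a median of 0.374 over all promoters. The promoters of Twist2 (0.788), Twist1 (0.740) and Prrx2 (0.686) were also rich in CpG, while those of Prrx1 (0.321) and Tcf21 (0.293) were not, and the 4 of Zeb2 ran from 0.347 to 0.675. Twist2 was scarce with a CpG content close to that of Twist1. In the PRRX pair, Prrx2 had both the higher CpG content and the higher level per length (16.6 RPKM, against 9.64 RPKM for Prrx1). A link between CpG content and level was not tested.

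The ZEB genes had the most reads of all members before division by length. Zeb1 (chromosome 18, 5591860 to 5775467) had 5930 reads, or 113 CPM (110 to 116) and 11.0 RPKM. Zeb2 (chromosome 2, 44983632 to 45117395, minus strand) had 8887 reads, or 169 CPM (166 to 173) and 8.49 RPKM. Which of the pair was higher cannot be stated: Zeb1 exceeded Zeb2 by a ratio of 1.30 (1.25 to 1.34) per exon length and of 1.05 (1.02 to 1.08) with the longest transcripts, but the ratio was 0.647 (0.626 to 0.669) with the listed transcripts. The annotation gives Zeb2 19942 bases of exons, although its longest transcript has 9124. Both ZEB genes lay above the median of detected coding genes with all exons (4.94 RPKM) and with the longest transcripts (6.70 RPKM).

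Of the TWIST genes, Twist1 was expressed and Twist2 nearly was not. Twist1 (chromosome 12, 33957671 to 33959829) had 1257 reads, or 23.9 CPM (22.6 to 25.3) and 14.7 RPKM, above 84.9% of coding genes. Twist2 (chromosome 1, 91801461 to 91848028), also known as Dermo1, had 18 reads, or 0.343 CPM (0.203 to 0.542) and 0.108 RPKM. The per-length ratio of Twist1 to Twist2 was 136 (85.8 to 230) with all exons and 57.0 (35.9 to 96.5) with the listed transcripts. The Twist2 transcript shares no window of 35 bases with Twist1, so such reads would not be split between the pair. However, 57.6% of its windows also lie in an antisense transcript of Gm29100, and none of the sources used here says whether strand was used in counting. Reads of Twist2 and of that antisense RNA therefore cannot be told apart.

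Among the relatives of TWIST and TCF21, Hand2 stood near Twist1. Hand2, a helix-loop-helix factor of heart, limb and gut mesenchyme, had 1208 reads and 9.79 RPKM (9.24 to 10.4). Of the other 8 relatives measured, Tcf23 had 211 reads, the tendon factor gene Scx 84 and Mesp2 13. Msc, the musculin gene, had 5 reads, Ferd3l 4, Hand1 3, and Tcf15 and Mesp1 were at 0, with an upper interval limit of 0.0703 CPM. The floor used below, 3 reads, is 0.0571 CPM. The median over the 9 was 0.0860 RPKM.

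Both PRRX genes were expressed. Prrx1 (chromosome 1, 163245119 to 163313710, minus strand) had 5599 reads, or 107 CPM (104 to 109) and 9.64 RPKM. Prrx2 (chromosome 2, 30834972 to 30881251) had 1707 reads, or 32.5 CPM (31.0 to 34.1) and 16.6 RPKM. In reads Prrx1 was ahead 3.28-fold, but it has 11066 bases of exons and Prrx2 1961. Per length Prrx2 exceeded Prrx1 by a ratio of 1.72 (1.63 to 1.82) with all exons, 1.38 with the longest and 1.16 (1.10 to 1.23) with the listed transcripts. The related paired-type homeobox genes described here were scarce. Shox2 had 97 reads and 0.558 RPKM, Alx1 and Alx4 had 9 reads each, Uncx 5, and Drgx, listed under its older symbol Prrxl1, 2.

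Tcf21 was the scarcest member. Tcf21 (chromosome 10, 22817281 to 22820174, minus strand), the gene of capsulin or epicardin, had 2 reads, or 0.0381 CPM (0.00461 to 0.138), which lies below the 3-read floor of 0.0571 CPM. Only 17.4% of coding genes were lower per length. A level so near the floor cannot be told apart from none at this depth. The antisense gene Gm10824 overlaps Tcf21 and was not analysed here.

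Tcf4 was expressed, at a level that depended on the length used. Tcf4 (chromosome 18, 69343356 to 69689079) had 2973 reads, or 56.6 CPM (54.6 to 58.7) and 2.07 RPKM. Its accessions in the table are those of the E protein gene, also known as E2-2. Tcf7l2, the HMG-box gene of Wnt signalling that is often also called TCF4, was a separate row with 2748 reads and 5.97 RPKM. The exons of Tcf4 add up to 27382 bases over many isoforms, and with the longest transcript of 8577 bases the level was 6.60 RPKM and with the listed transcripts 9.23 RPKM. Tcf4 then passed Snai2, which stayed at 3.06 RPKM. The median of detected coding genes was 21.4 CPM, or 4.94 RPKM with all exons and 6.70 RPKM with the longest transcripts. Of the other TCF/LEF genes, Tcf7l1 had 3.33 RPKM, Tcf7 0.581 RPKM and Lef1 20 reads.

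Tcf4 was the least abundant of the E protein genes. Tcf3, the gene of E12 and E47, had 4550 reads and 21.5 RPKM, and Tcf12, the gene of HEB, had 7127 reads and 8.74 RPKM. Tcf3 exceeded Tcf4 10.4-fold per exon length (9.90 to 10.9) and 3.25-fold with the listed transcripts. Tcf4 made up 6.41% of the summed E protein level with all exons and 12.1% with the listed transcripts. The sum was 32.3 RPKM, 2.19 times the level of Twist1 with all exons, 3.91 times with the longest and 5.20 times with the listed transcripts.

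The Id genes, whose products hold E proteins in dimers that do not bind DNA, were all abundant. Id1 had 67.9 RPKM, Id3 51.5 RPKM, Id2 38.5 RPKM and Id4 10.1 RPKM. All 4 lay above the median of detected coding genes. Their sum of 168 RPKM was 5.21 times that of the E proteins, 3.44 times with the longest and 3.15 times with the listed transcripts. These ratios are of transcripts and do not show how much of each protein or dimer was present.

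**Figure D2:**
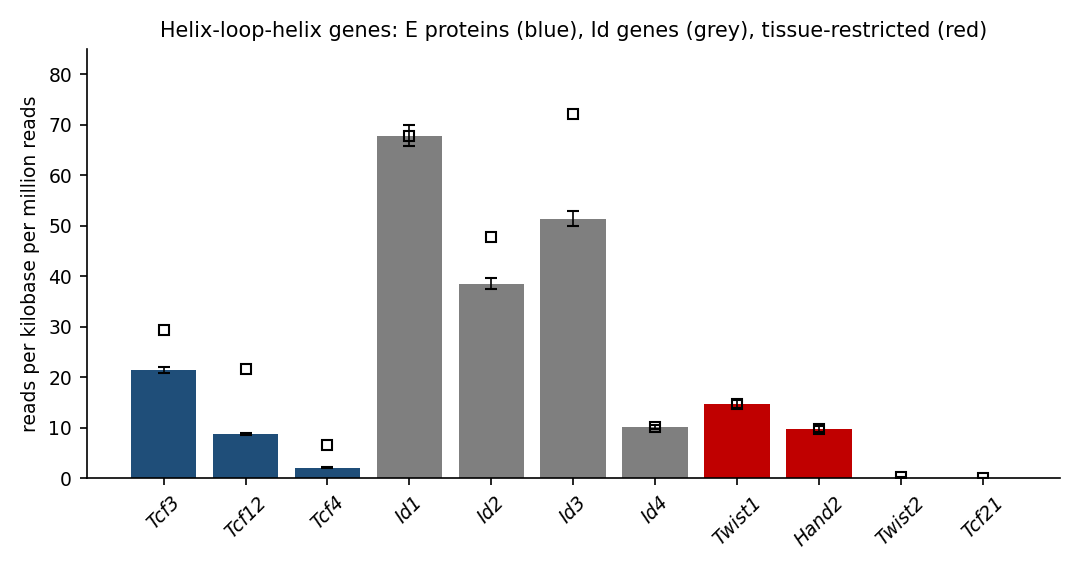
Levels of helix-loop-helix genes in the 1 library, in RPKM on a linear axis from 0. Bars use all exons, with 95% Poisson intervals, and open squares use the longest transcript; Id1 to Id3 stand above each E protein gene on both, Twist1 (14.7 RPKM) stands beside Hand2 (9.79 RPKM), and Twist2 and Tcf21 are too low to show a bar.

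MicroRNAs of the miR-200 family are known to hold Zeb1 and Zeb2 down in epithelial cells, miR-205 acts on the same genes, and miR-34a acts on Snai1. The mature sequences below (RefSeq, GRCm38.p6, 5′ to 3′) are shown because their seeds, bases 2 to 8, here in capitals, define the sites searched for in the members. They fall into 2 seed groups for the miR-200 family, AAUACUG and AACACUG, and 1 seed each for miR-205 and miR-34a.
mmu-miR-200b-3p: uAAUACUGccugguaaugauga
mmu-miR-200c-3p: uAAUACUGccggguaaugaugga
mmu-miR-429-3p: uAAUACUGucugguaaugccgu
mmu-miR-200a-3p: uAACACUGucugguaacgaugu
mmu-miR-141-3p: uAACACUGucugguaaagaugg
mmu-miR-205-5p: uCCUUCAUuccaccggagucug
mmu-miR-34a-5p: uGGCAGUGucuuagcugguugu
The gene rows of the miR-200 family and miR-205 held few or no reads, and that of miR-34a held more. Mir200b had 8 reads, Mir200a 5, Mir200c and Mir429 2 each, and Mir141 and Mir205 0. Mir34a had 266 reads, or 5.07 CPM (4.48 to 5.71). Such rows count reads over the short hairpin gene. A library of this kind does not measure the mature microRNA, so these counts are not levels of the mature forms.

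Seed matches for the miR-200 family were concentrated in Zeb1 and Zeb2. In the untranslated 3′ end of the longest coding transcript, Zeb1 had 5 matches of CAGTATT, the complement of the miR-200b, miR-200c and miR-429 seed, and 4 of CAGTGTT, that of the miR-200a and miR-141 seed. Zeb2 had the same numbers, 5 and 4. Of 3′ ends within 25% of the length of that of Zeb1 (2401 bases), 0.0309% had as many CAGTATT matches, which is Zeb1 itself among 3239, and 0.154% as many CAGTGTT matches. For Zeb2 (4941 bases) the shares were 0.226% and 1.43% of 1325. Snai1 and Snai2 had 1 CAGTATT each, and Snai2 also 1 CAGTGTT. Tcf4, with 6007 bases, had 1 and 2, and 42.5% and 23.4% of 3′ ends of like length had as many. The 3′ ends of Twist1, Twist2, Prrx1, Prrx2 and Tcf21 had none of the 4 seed matches, that of Prrx1 over 4891 bases. The miR-34a match CACTGCC occurred once, in Snai1, and the miR-205 match ATGAAGG once, in Zeb1.

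In Zeb2, 8 of the 9 matches lay between 209 and 1039 bases after the stop codon, and the ninth lay 4163 bases after it. These 8 are shown with 8 bases on either side and the seed match in capitals (GRCm38 chromosome 2, minus strand, 5′ to 3′), to show the letters around the repeated matches. Those letters differ as a whole, although some of the matches share the few bases right before them. The list gives the 5 matches of CAGTATT and then 3 of the 4 of CAGTGTT, although along the gene both kinds are interleaved.
Zeb2, 393 bases after the stop codon (chr2:44988166-44988188): ccatacatCAGTATTttattatt
Zeb2, 458 bases after the stop codon (chr2:44988101-44988123): cagtgcatCAGTATTacgattcc
Zeb2, 820 bases after the stop codon (chr2:44987739-44987761): acccgtgtCAGTATTagacgact
Zeb2, 905 bases after the stop codon (chr2:44987654-44987676): aattttgtCAGTATTacaccaaa
Zeb2, 1039 bases after the stop codon (chr2:44987520-44987542): gtagtgtaCAGTATTatagttct
Zeb2, 209 bases after the stop codon (chr2:44988350-44988372): attttgtaCAGTGTTaaggccta
Zeb2, 741 bases after the stop codon (chr2:44987818-44987840): tccttgtaCAGTGTTcagagggt
Zeb2, 782 bases after the stop codon (chr2:44987777-44987799): accagcttCAGTGTTaagctcac
The matches are a property of the gene and hold in any cell. In this library they stand beside Zeb2 at 169 CPM and Mir200b and Mir200a at 8 and 5 reads, and no link between those values was tested.

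**Figure D3:**
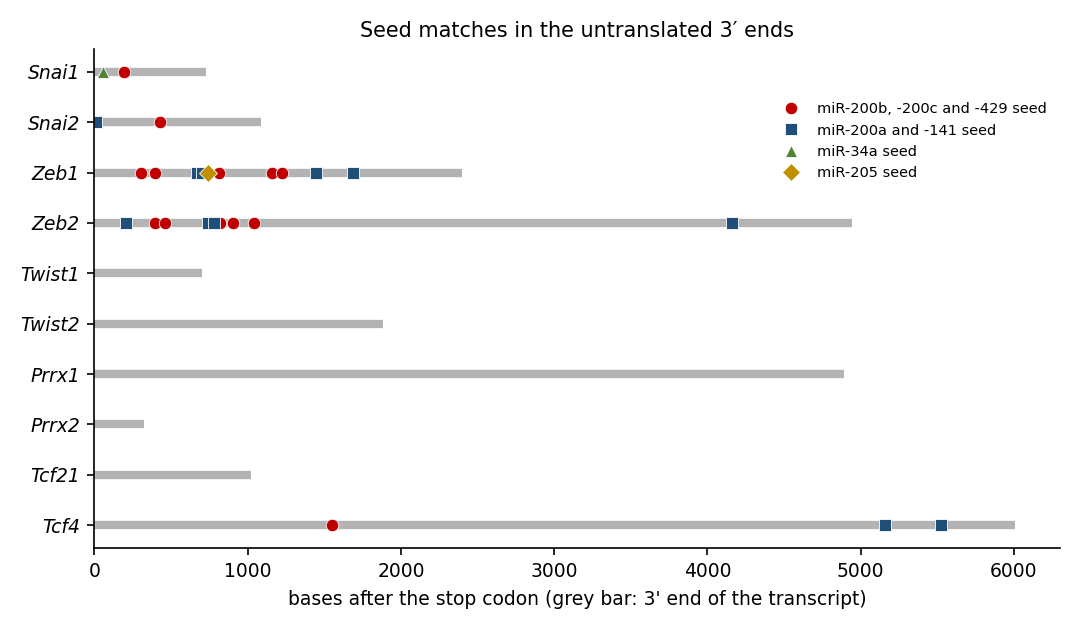
Matches to 4 microRNA seeds along the untranslated 3′ end of the longest coding transcript of each member, plotted as bases after the stop codon. Grey bars give the length of each end, and Zeb1 and Zeb2 carry 9 matches to the 2 miR-200 seeds each, against none in Twist1, Twist2, Prrx1, Prrx2 and Tcf21.

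Genes that Snail, ZEB and TWIST proteins are known to repress, with other epithelial genes, were low. Of the 21 epithelial genes examined, 20 had at least 10 reads but only Krt18 (8.22 RPKM) and Krt19 (5.98 RPKM) lay above the median of detected coding genes. The list median was 0.378 RPKM, against 9.06 RPKM over the 10 factors. On the scale of log2(RPKM + 0.5) the medians differed by 3.44, and by 3.19 to 3.67 when every gene was set to the end of its own Poisson interval that narrows or widens the gap. The size depends on the pseudocount, and with 5 in place of 0.5 the difference was 1.39. None of the 21 reached the level of Zeb2 (8.49 RPKM), the lowest of the upper 6 factors with all exons as length. Krt18 came close, and its interval (7.58 to 8.89) takes in the level of Zeb2. On the same length the epithelial genes overlapped the lower factors. Krt18 and Krt19 were above Snai2 (3.06 RPKM) and Tcf4 (2.07 RPKM), and Esrp2 and Llgl2 were above Tcf4 and close to Snai2. Cdh1 was above Twist2 (0.108 RPKM) and Tcf21 (0.0162 RPKM). Cdh1, the E-cadherin gene, had 276 reads and 1.15 RPKM (1.02 to 1.29), and Epcam 61 reads and 0.529 RPKM. Esrp2 and Llgl2 had 3.25 and 3.18 RPKM, and Cldn3 had 5 reads. Whether the factors have a part in these low levels was not tested.

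E-boxes were common in the promoters of these epithelial genes. RefSeq promoters were found for 13 of the 21, and 10 of the 13 held CAGGTG or CACCTG within 250 bases before a start, as did 12 of their 17 promoters, against the 17.2% of all promoters given above. Several of these genes have E-boxes known to be bound by Snail or ZEB proteins, which is why they are on the list. The count is therefore no independent result. Those of Epcam, an epithelial adhesion gene with 2 E-boxes at -187 and -19, and Crb3, a polarity gene with 3 at -118, -63 and -7, are shown with the E-boxes in capitals (GRCm38.p6, chr17:87635729-87635978 and chr17:57061951-57062200, both plus strand, 5′ to 3′).
Epcam: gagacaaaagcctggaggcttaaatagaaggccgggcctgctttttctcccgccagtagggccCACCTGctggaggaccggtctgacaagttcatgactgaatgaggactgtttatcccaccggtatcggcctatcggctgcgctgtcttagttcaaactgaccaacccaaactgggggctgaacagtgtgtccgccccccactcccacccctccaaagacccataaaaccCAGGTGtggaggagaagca
Crb3: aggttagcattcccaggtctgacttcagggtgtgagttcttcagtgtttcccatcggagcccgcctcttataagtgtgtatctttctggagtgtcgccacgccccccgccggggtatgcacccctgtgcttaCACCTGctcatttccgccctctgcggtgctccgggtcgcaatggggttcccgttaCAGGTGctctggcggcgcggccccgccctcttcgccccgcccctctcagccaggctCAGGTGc
Crb3 had 11 reads, or 0.134 RPKM.

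Factors that hold the epithelial state were scarcer still. The list of 11 had a median of 0.117 RPKM, and none lay above the median of detected coding genes. Foxa2 led it with 497 reads and 3.99 RPKM (3.65 to 4.36), followed by Grhl1 at 0.743 RPKM. Grhl2 had 17 reads, Ovol2 13 and Ovol1 10; OVOL and GRHL2 proteins are known to oppose ZEB factors.

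Mesenchymal genes showed the opposite picture. All 20 examined were above the median of detected coding genes, and their median was 151 RPKM. Vim, the vimentin gene, had 603 RPKM and Fn1, the fibronectin gene, 906 RPKM. Cdh2, the N-cadherin gene, had 39.2 RPKM, which is 34.1 times the level of Cdh1 (30.3 to 38.6). The ranges of the factors and of the mesenchymal genes overlapped, since Cdh11 (11.1 RPKM) was below Snai1 (20.8 RPKM). Tnc was below Snai1 with all exons (19.7 RPKM) but above it with the longest transcript (21.5 RPKM). Most of these mesenchymal genes lay well above each of the factors.

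**Figure D4:**
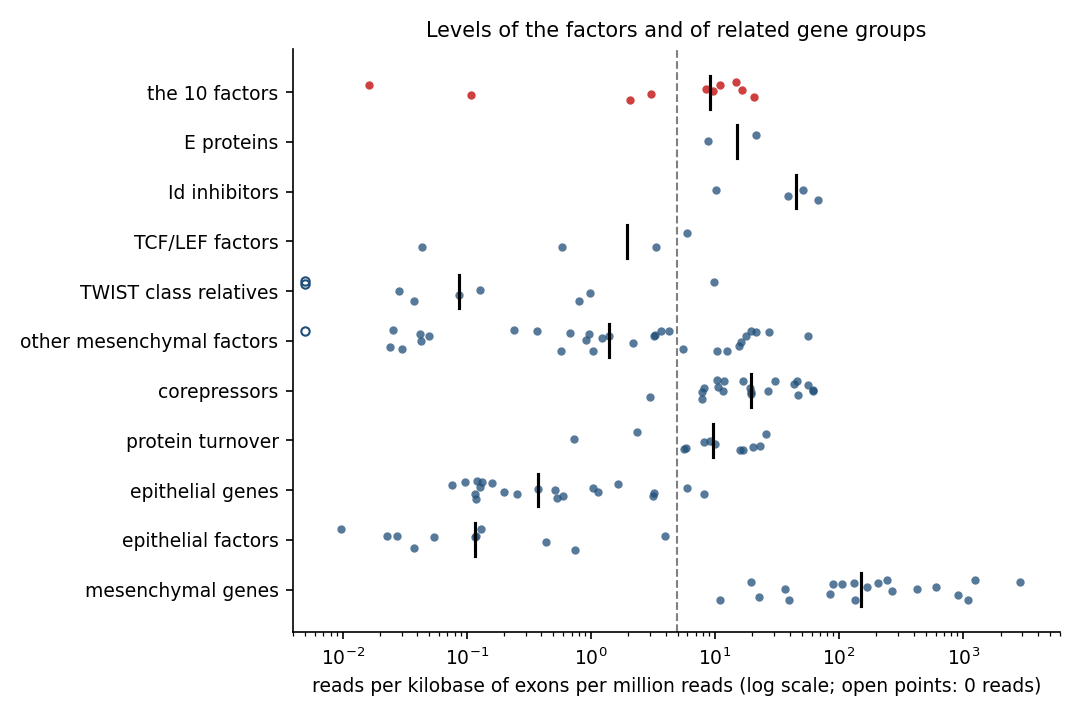
Levels per length (log axis) of the 10 factors (red) and of 10 related gene groups (blue) in the 1 library, 1 point for each gene. Black bars are group medians, open points at the left edge are genes at 0 reads, and the dashed line is the median of detected protein-coding genes (4.94 RPKM); the median of the 10 factors (9.06 RPKM) lies between those of the epithelial genes (0.378 RPKM) and of the mesenchymal genes (151 RPKM).

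The corepressors through which Snail, ZEB and TWIST proteins act were broadly expressed. All 20 examined had at least 10 reads, 19 lay above the median of detected coding genes, and the list median was 19.4 RPKM. The highest were Mta2 at 62.2 RPKM, Rbbp7 at 61.1 RPKM and Chd4 at 55.9 RPKM, which encode subunits of the NuRD chromatin complex. Ctbp1, the corepressor that ZEB proteins recruit, had 46.3 RPKM and its relative Ctbp2 10.6 RPKM. Hdac1, which encodes a deacetylase of the same NuRD complex, was the lowest of the list at 2.99 RPKM, and its relative Hdac2 had 16.7 RPKM. Genes acting on the stability of the proteins were also present, 10 of 12 above that median. Gsk3b, the kinase that marks Snail for destruction, had 25.6 RPKM, Csnk1a1 23.1 RPKM and Lats2 20.4 RPKM. Btrc, which encodes the ubiquitin ligase subunit that recognises marked Snail, had 2.35 RPKM, and Usp27x 0.735 RPKM. Such genes are widely expressed, and 33.9% of coding genes lay above the same median.

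The members were also placed among 31 other transcription factors linked to mesenchyme. The upper 6 members were picked by their level, so their high places here are no separate result. With all exons as length, 3 of the 31 were above Snai1: Tead1 at 56.7 RPKM, Osr1 at 27.5 RPKM and Nr2f2 at 21.5 RPKM. The intervals of Nr2f2 (21.1 to 21.9) and Snai1 (19.9 to 21.8) overlapped. On the same length Prrx2 was exceeded by 5 of the 31, Twist1 by 7, Zeb1 by 8 and Zeb2 and Prrx1 by 9 each. These places depend on the length used, and with the longest or the listed transcripts more of the 31 were above Snai1. With all exons, Snai2 was exceeded by 14 of the 31, Tcf4 by 15, Twist2 by 24 and Tcf21 by 30. The median of the 31 genes was 1.41 RPKM, and 10 of them lay above the median of detected coding genes, with Six2 (0 reads), Meox2 (3 reads) and Tbx20 (16 reads) the lowest per length.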

How the data were processed

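RNA sequencing of 1 library, labelled normal fibroblast, was analysed. Per the labels' protocols, total RNA was extracted with Trizol and libraries were made by SOLiD protocols. The authors' deposited signal gives 1 value for each of 24214 rows. All 20976 values above 0 are whole multiples of 1.18 within 0.01 of a read, which fits counts that were scaled by a size factor of 0.850, and whole reads were recovered by undoing it. The submitters' processing notes name DESeq and mm10 without a role. No source used here names the aligner, counter, strand setting, annotation or filters. Rows differing only by a copy suffix were summed to 23386 genes, of which 20559 have an NM accession and were taken as coding.

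No test was planned or run, since there is 1 library. CPM uses the 52494688 reads, so 1 read is 0.0190 CPM. Intervals are exact Poisson for levels and exact binomial for ratios and shares. Because PCR copies can be counted as separate reads, the intervals and the 3-read floor describe counting error alone. Detection means at least 10 reads. Gene length was the merged exons of the GENCODE M21 annotation (GRCm38, the assembly that mm10 denotes), found for 99.2% of coding genes. Alternatives were the longest transcript, the transcripts listed in the table, no length, other totals, thresholds and a pseudocount of 5 in place of 0.5. Promoters and microRNAs came from RefSeq tables of GRCm38.p6, and 3′ ends from GENCODE transcripts. Transcript windows had 35 bases. Of 210 listed genes 209 had a row. Members and lists were chosen with earlier results of these data known. The text names every member, each relative, E protein, Id and TCF/LEF gene, neighbouring or overlapping genes, up to the 4 highest and 3 lowest genes of longer lists, and Cdh1, Epcam, Vim, Fn1 and Cdh2. Outside that rule Ctbp2, Hdac2, Crb3, Grhl2, Ovol1 and Ovol2 were named after their values were seen. Some relatives and a part of the genotype are not reported here. Read recovery and intervals were tested on simulated data. Scripts ran in Python 3.11.15 with scipy 1.17.1, pandas 2.3.3, numpy 2.4.6 and, for figures, matplotlib 3.10.9.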

Additional observations from a re-analysis of the deposited data

How the results depend on the processing

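No paired analysis was possible because only 1 sample exists here, and leaving out a replicate was likewise not possible. The count of members detected was 9 at 10 reads, 8 at a minimum of 50, 10 at a minimum of 1, and 9 without summing copies; the count above the median of detected coding genes was 7, and 6 per length. The median log2 level of the members moved from 5.07 to 5.25 with a pseudocount of 5, to 5.49 without the 100 most abundant genes in the total and to 5.19 with a total over coding genes, and was 5.10 over members with at least 10 reads. Without division by length the ratio of Snai1 to Snai2 was 5.45, that of Twist1 to Twist2 69.8, and those of Zeb1 to Zeb2 (0.667) and Prrx2 to Prrx1 (0.305) turned around. With the longest transcripts the ratio of Zeb1 to Zeb2 was 1.05 and that of Prrx2 to Prrx1 1.38. With the transcripts that the table lists, a setting chosen after seeing the data, Zeb1 to Zeb2 turned to 0.647, Twist1 to Twist2 was 57.0 and Prrx2 to Prrx1 1.16; the lengths alone differ between these settings. The difference between the members and the epithelial genes, 3.44, was 1.39 with a pseudocount of 5, 4.34 without division by length and 4.31 with the listed transcripts. Tcf21 and Twist2 rest on 2 and 18 reads.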

Other observations

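The protein-coding genes next to each member were examined as values. Snai2 lies between A630010A05Rik (2 reads) and Efcab1 (5 reads), and Tcf4 between Mc2r (2 reads) and Ccdc68 (30 reads), so both were expressed beside genes with few reads in this library. Tcf21 showed the reverse: its neighbours Tbpl1 and Eya4 had 10.2 and 7.87 RPKM, against 2 reads for Tcf21 itself. Likewise Twist2 lies between Asb1 (5.50 RPKM) and the histone deacetylase gene Hdac4 (1.76 RPKM), both above its 0.108 RPKM. Twist1 lies between Ferd3l, at 4 reads, and another histone deacetylase gene, Hdac9, at 2.11 RPKM. Snai1 had Rnf114 (17.6 RPKM) and Ube2v1 (9.53 RPKM) beside it, and Prrx2 had Asb6 (5.57 RPKM) and Ptges, the prostaglandin E synthase gene (6.66 RPKM). Zeb1 lies between Zfp438 (1.41 RPKM) and Arhgap12 (9.69 RPKM), and Prrx1 between Mroh9 (7 reads) and Gorab (5.17 RPKM).

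Zeb2 stands in the widest gene-poor stretch of these, with the next coding gene on one side, Acvr2a, 3697 kilobases away at 5.37 RPKM, and Gtdc1 on the other, 56.0 kilobases away at 1.23 RPKM. The microRNA gene Mir5129, inside Zeb2 on the same strand, had 12 reads.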
